A study of Mus musculus with 9 samples.

Results

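The comparison described here is that of low with high interleukin-7 (IL-7) in cultured mouse pre-B cells that lack the transcription factors IRF4 and IRF8. Its members are the 6 arrays, of 9 in the series, whose titles name the low and the high IL-7 culture of the null cells, with 3 arrays in each group. All 6 arrays came from cells of the genotype IRF4,8 -/-, so the controls carry the deletions too. The other 3 arrays, from the same null cells with IRF4 reintroduced at high IL-7, entered the estimate of the spread and the mean intensity behind the filter and the choice of probe sets. The labels give the high amount as 5 ng and the low amount as 0.25 ng of IL-7, but they disagree on the volume (ml or µl), so no concentration is given here. The growth text, which is the same for every array, names the high amount only. The question the labels pose is what lowering IL-7 changes when IRF4 is absent, in a study of immunoglobulin light-chain recombination. The labels do not say whether the arrays came from separate cultures or animals, so every p-value reflects only how far these arrays differ, and that spread may be technical.

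IL-7 is the cytokine on which early B-lineage cells depend for growth and survival. Its receptor signals through JAK kinases to STAT5 and also feeds the PI3K pathway, and it keeps pre-B cells cycling. As the signal wanes, pre-B cells leave the cycle and open the light-chain loci for recombination, a step to which IRF4 also contributes.

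The 6 arrays were alike in scale, with median intensities between 139.7 and 151.3, and arrays of the same group correlated across probe sets at 0.9806 or more. For the labelled cell type, 10 B-lineage markers such as Cd79b and Blnk were tested. Their summed intensity lay between 62830 and 71320 in high IL-7 and between 91560 and 93770 in low IL-7. Summed over 6 tested T cell markers and 6 tested myeloid markers, intensities stayed between 2107 and 2532 and between 1030 and 1092 on all 6 arrays. The sum of 5 erythroid and megakaryocyte markers, most of it Car2, lay between 15440 and 16040 in high IL-7 and between 9624 and 10750 in low IL-7. That of 5 dendritic and natural killer cell markers lay between 1227 and 1910 and between 906.1 and 996.3, and its fall was that of Bst2. In the fit described below 1 of the 5 fell (Bst2) and 1 rose (Prf1, a call that some other fits lost). The median log2 change of the 5, low minus high, was 0.07. The part of such cells in the results was not tested. The brighter Irf4 probe set read 4719 to 5791 in high IL-7 and 7161 to 7926 in low IL-7, although the cells are labelled null. The sources used here do not say which exons were deleted, so these probe sets do not check the genotype. Stromal and fibroblast markers varied several-fold among the high IL-7 arrays and are described with the genes that moved with them.

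Of 18193 genes with a probe set of their own, 12828 passed the filter on dim probe sets and were tested. Each value below is a log2 difference of intensity + 16, low minus high, with its standard error (SE) and the Benjamini-Hochberg adjusted p of limma, a linear model that shares the error estimate across genes. At an adjusted p under 0.05, 4783 genes were called, which is 37.3% of those tested: 2278 rose (17.8%) and 2505 fell (19.5%). In 4779 of the 4783 the differences within the 3 replicate numbers all had the same sign. The calls were made on these same arrays, so that agreement is largely built in and adds no separate support. Changes of at least 2-fold were fewer, at 854 genes (6.66%), with 341 rises (2.66%) and 513 falls (4%). At 4-fold or more there were 41 rises and 37 falls, and at 8-fold or more 9 rises and 3 falls. The 3 arrays of one group all lay above the 3 of the other in 6429 genes (50.1%). The 30 largest rises and 30 largest falls were drawn from called genes of this kind, so their lack of overlap was fixed by that choice. Genes called and changed at least 2-fold had a median intensity of 893 for the rises and 959 for the falls, against 466 over all genes tested. The added 16 shrinks the changes of dim genes, so part of this difference may be built in.

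Below Rag1, Bmf and the few other largest rises stood a mixed set of signalling, membrane and RNA-binding genes. Tifa, an adaptor that links TRAF proteins to NF-κB signalling, read 414, 369.5 and 395.3 in high IL-7 and 3693, 2929 and 3242 in low IL-7. The groups were far apart and each was tight, which gave a log2 change of 3.01 (SE 0.13, limma adjusted p = 2.14e-07). Adgre5, the adhesion receptor CD97, read 807.2, 642.2 and 670.7 in high IL-7 and 5310, 4546 and 5453 in low IL-7, a change of 2.83 (SE 0.15). Cerk, ceramide kinase, went from 637.6, 639.3 and 521.1 to 3171, 3728 and 3604, a change of 2.52 (SE 0.11). Scn4b, an auxiliary subunit of sodium channels, went from 536.3, 502.7 and 543.1 to 3223, 2679 and 2974, a change of 2.45 (SE 0.12). In each of these 4 genes the lowest low IL-7 array was several times the highest high IL-7 array.

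Several of the leading rises started from near the floor of the array. Spo11, the topoisomerase-like enzyme that makes the DNA breaks of meiosis, read 53.25, 47.9 and 47.54 in high IL-7 and 414.2, 510.3 and 461.9 in low IL-7, a log2 change of 2.86. F13a1, a subunit of coagulation factor XIII, read 62.52, 55.22 and 54.71 against 531.4, 446.4 and 507.8, a change of 2.80. Rbm24, an RNA-binding protein, read 68.12, 87.95 and 77.93 against 819.3, 1231 and 1307, a change of 3.57. Mturn (2.96) and Ms4a6c (2.77) followed the same form. The high IL-7 values of these 5 genes lay below the filter level of 106.5, so how large their changes appear rests on the pseudocount of 16. In all, 66 called genes were below that level in high IL-7 alone, and 95 called genes were below it in low IL-7 alone.

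The other large rises included Rgs2, which shortens G protein signals, at 2.69 (SE 0.13), with 2 of its 3 further probe sets at 2.58 and 2.52 and the last not called. Serinc5, a membrane protein known for restricting retroviruses, rose by 2.84 (SE 0.25). Asb2, an adaptor of a cullin ubiquitin ligase, rose by 2.54, and its differences within replicate numbers ran from 1.91 to 3.06. Lima1, an actin-bundling protein, rose by 2.44, and Cecr2, a bromodomain partner of chromatin remodellers, by 2.24. Ifi209, an interferon-inducible gene of the PYHIN family, rose by 2.59 but less evenly, reading 708.5, 1429 and 570.9 in high IL-7 and 4766, 5299 and 5297 in low IL-7. Selenop, the selenium carrier protein, read 533.2, 1714 and 1206 against 4796, 5703 and 4462, a change of 2.24 (SE 0.38). The high IL-7 arrays of both genes were spread widely but stayed below every low IL-7 array, as the rule for the largest rises required. Col5a3 (2.56), Sertad4 (2.66) and Crybg1 (2.28) completed this group.

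**Figure D1:**
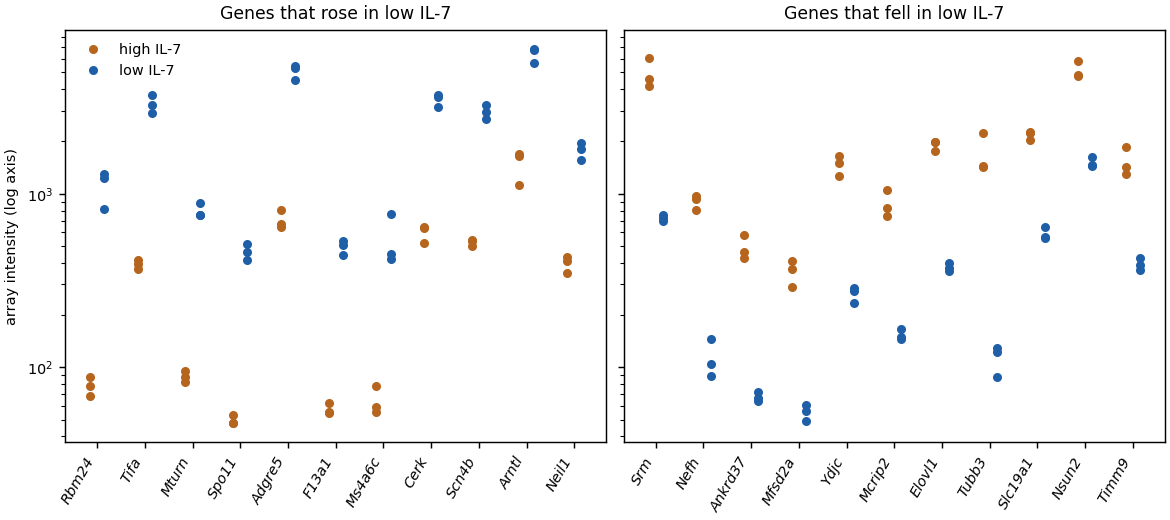
Array intensity (log axis) of single genes in the 3 high IL-7 and 3 low IL-7 arrays, with one point per array; the left panel holds genes that rose and the right panel genes that fell. In every gene shown the groups do not overlap, as for Tifa, which lay between 369.5 and 414 in high IL-7 and between 2929 and 3693 in low IL-7. For genes among the 30 largest rises and falls this was a condition of being named.

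The largest fall was in a tubulin gene, and a neurofilament gene was also among the large falls. Tubb3, a beta-tubulin best known from neurons, read 2247, 1441 and 1431 in high IL-7 and 129.3, 88.35 and 122.6 in low IL-7, a log2 change of -3.72 (SE 0.20, limma adjusted p = 4.69e-07). Nefh, the heavy neurofilament subunit, read 934.8, 807.2 and 974.2 against 145.8, 89.14 and 104, a change of -2.86 (SE 0.15). Both had groups that did not overlap, as the rule for the largest falls required. The other members of their families mostly did not follow: of 107 tubulin, kinesin, dynein and microtubule genes tested, 28 rose (26.2%) and 9 fell (8.41%), and of 106 actin and intermediate filament genes 23 rose and 8 fell (5 without low IL-7 replicate 2 or 3). Tuba4a (-1.14) and Coro2a (-1.41) were the next largest falls in those families, and Kif21b (1.16) and Myo7a (1.51) the largest rises.

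Srm, spermidine synthase, was among the brightest of the large falls, reading 6049, 4146 and 4569 in high IL-7 and 721.8, 753.8 and 693.5 in low IL-7, a log2 change of -2.72 (SE 0.14). Mfsd2a, a carrier of lysophosphatidylcholine lipids, read 407.9, 289.6 and 366.6 against 49.31, 56 and 60.46, a change of -2.37 that depends on the pseudocount because the low IL-7 arrays were below the filter level. Elovl1, an elongase of very long fatty acids, read 1755, 1994 and 1977 against 356.9, 371.5 and 398.9, a change of -2.30 that its 3 other probe sets shared (-2.38, -2.11 and -2.33). These genes too separated fully between the groups, as the rule for the largest falls required. Among amino acid genes, Slc7a5, a subunit of the large neutral amino acid carrier, fell by 2.70, Aldh18a1, which starts proline synthesis, by 2.23, Slc1a4, a carrier of small neutral amino acids, by 2.12 and Bcat1, which transaminates branched-chain amino acids, by 2.12. Ankrd37, a gene known as a hypoxia target, read 576.2, 463.4 and 428 against 72.09, 66.39 and 63.76, a change of -2.59. Ydjc (-2.40), Mcrip2 (-2.38) and Pfkl, the liver phosphofructokinase (-2.51), also fell and were chosen by that rule. The probe set assigned to Mir1949 fell by 2.20 (796.9, 608 and 611.3 against 133, 131.4 and 133.8), and this array format reads a longer transcript there, not the mature microRNA.

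The 67 gene families examined were chosen with earlier results of these data known, so their counts are descriptions, and they are read against the 17.8% of all tested genes that rose and the 19.5% that fell. Among the families in which most members fell were those of mitochondrial import, tRNA modification and the methionine and folate cycle. Most proteins of mitochondria are made in the cytosol and pulled in through the TOM and TIM complexes. Of 35 mitochondrial import genes, all of which passed the filter, 25 fell (71.4%) and 1 rose, with a median log2 change of -0.57 against 0.02 over all genes. Timm9, a small chaperone of the space between the membranes, read 1863, 1293 and 1431 in high IL-7 and 428.6, 390.2 and 366 in low IL-7 (-1.90, SE 0.15, limma adjusted p = 5.19e-06). Timm8a1, another such chaperone, read 4706, 3947 and 4346 against 1415, 1237 and 1164 (-1.76, SE 0.09). Tomm40, the channel of the outer membrane, fell by 1.70. All 3 separated fully. The exception was Pam16, a co-chaperone of the import motor, which read 1823, 1946 and 2047 against 3188, 2953 and 3347 (0.70, SE 0.08). Leaving out single arrays left between 22 and 27 of the family's falls.

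Genes for mitochondrial dynamics and genome upkeep went the same way, with 16 of 36 falling and 2 rising (1 without high IL-7 replicate 1 or low IL-7 replicate 2 or 3). Pprc1 (-1.86) and Ppargc1b (-1.73), coactivators that drive mitochondrial gene programmes, and the matrix protease subunit Clpp (-1.21) led the falls. Pink1, the kinase that marks damaged mitochondria, rose by 1.31, reading 553.9, 646.9 and 512.7 in high IL-7 and 1464, 1334 and 1498 in low IL-7. The tricarboxylic acid cycle and pyruvate entry had 17 falls among 27 genes (63%) and 1 rise. Suclg2, a subunit of succinyl-CoA ligase, read 1851, 1570 and 1674 against 764.3, 645.7 and 604.7 (-1.32), and Idh3a, a subunit of isocitrate dehydrogenase, fell by 1.06. The kinases that switch off pyruvate dehydrogenase went opposite ways: Pdk1 fell by 1.20 (SE 0.18) and Pdk2 rose by 0.72 (SE 0.07). Pdk1 read 2033, 2468 and 2237 against 1086, 816.7 and 1010, and the much dimmer Pdk2 128.3, 115.3 and 120.9 against 217.4, 205 and 208.3, and the groups overlapped in neither.

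The enzymes that cut and modify transfer RNA were the family with the most falls, 49 of 70 tested (70%), with a median log2 change of -0.46. Rpp40, a subunit of the ribonuclease P complex that trims tRNA ends, read 608.7, 550.8 and 649.2 in high IL-7 and 161, 157.7 and 152.6 in low IL-7 (-1.84, SE 0.09). Mettl1, which places a methylated guanine in tRNA, read 967.5, 761.5 and 839 against 268.6, 242.8 and 213.8 (-1.76, SE 0.12). Nsun2, which methylates cytosine in tRNA, read 5833, 4762 and 4798 against 1632, 1467 and 1436 (-1.75, SE 0.09). In these 3 genes the differences within replicate numbers ran from -1.98 to -1.59. The single rise, Trmt12 (0.23), was no longer called once replicate number entered the fit as a block (limma adjusted p = 0.0565). Between 41 and 50 falls were found with single arrays left out.

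Donors of methyl groups for such reactions come from the methionine and folate cycles, where 14 of 20 tested genes fell (70%) and 1 rose, with a median log2 change of -0.70. Mtap, which recovers methionine from the by-product of polyamine synthesis, read 3726, 3586 and 3745 in high IL-7 and 1250, 1059 and 1081 in low IL-7 (-1.70, SE 0.08). Mthfd1, a folate enzyme with several activities, fell by 1.47, and Slc19a1, the reduced folate carrier, read 2235, 2039 and 2271 against 641, 556.4 and 564.2 (-1.87, SE 0.11). Adi1, which acts later in the methionine salvage route than Mtap, rose by 0.56. Gldc, of the glycine cleavage system, fell by 2.05 with a wide error (SE 0.60): its high IL-7 arrays read 799.8, 235.8 and 472.1, and its adjusted p went up to 0.0695 in some fits that left out 1 array (replicates 1 and 3 of high IL-7, replicates 2 and 3 of low IL-7). Among 11 polyamine genes 5 fell and 3 rose. Odc1, which makes putrescine, fell by 0.80 beside Srm, while Sat1, which acetylates polyamines for breakdown and export, rose by 1.04 (550, 676.5 and 492.8 against 1258, 1113 and 1182).

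Genes for other steps of RNA metabolism leaned downward less strongly. Of 49 DEAD/DEAH box helicases, enzymes that unwind RNA, 22 fell, led by Ddx56 (-1.37) and Ddx18 (-1.36), and 7 rose (4 after median centring or without replicate 3 of either group). Of 91 splicing factors 37 fell and 10 rose. The falls included the Sm-like proteins Lsm2 (-1.25) and Lsm7 (-1.18), whereas Clk1, a kinase of splicing factors, rose by 1.25. Leaving out low IL-7 replicate 3 lowered the count of splicing falls to 24. Of 26 genes of RNA polymerase III, which transcribes tRNA genes, 12 fell and 3 rose. Polr3e (-1.47) and Polr3g (-1.18) led the falls, and the repressor of that polymerase, Maf1, rose by 0.62. RNA polymerase II and Mediator genes had 22 falls and 8 rises among 71, and 5 rises after median centring or without low IL-7 replicate 1 or high IL-7 replicate 3.

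Of 27 snoRNA host and other long noncoding RNAs tested, 13 fell and 4 rose, and the largest falls were transcripts whose introns carry small nucleolar RNAs. Snhg3 read 3982, 3234 and 3587 in high IL-7 and 1177, 821.9 and 807.2 in low IL-7 (-1.94, SE 0.15), and Snhg4 read 2675, 2029 and 2051 against 708.6, 582.6 and 538.9 (-1.85, SE 0.16). Dancr fell by 1.62. Neat1, the scaffold of nuclear paraspeckles, read 952.9, 783.6 and 693.5 against 2154, 2543 and 2614 (1.58, SE 0.15), although its second probe set was not called at 0.07. Tug1 rose by 0.61. Rises numbered 2 without replicate 3 of either group. Malat1 rose by 0.79, a call that ended when replicate 1 or 3 of high IL-7, or 2 or 3 of low IL-7, was left out (limma adjusted p at most 0.0885).

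**Figure D2:**
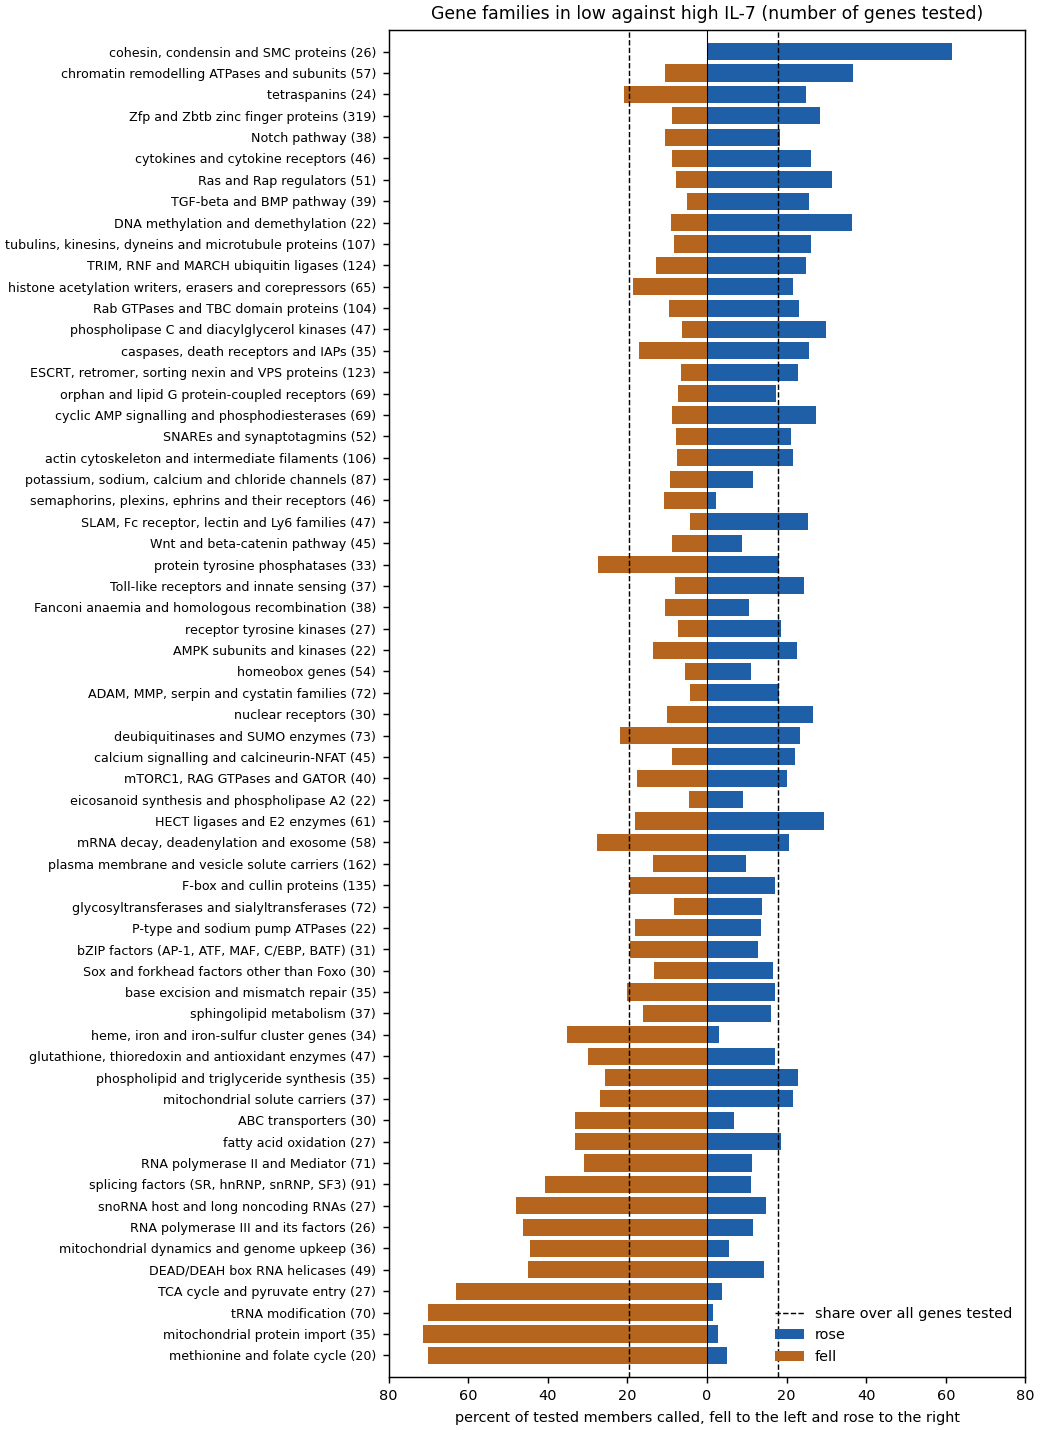
Percent of tested members called, with falls drawn to the left and rises to the right, for 62 of the 63 families with at least 20 tested genes (1 is not reported here), ordered by their median log2 change; dashed lines mark the shares over all genes tested, 17.8% up and 19.5% down. The methionine and folate cycle (70% fell), mitochondrial import (71.4% fell) and tRNA modification (70% fell) stand at the bottom, and cohesin, condensin and SMC proteins (61.5% rose, none fell) at the top.

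The promoters of these genes were searched for 5 short motifs on both strands, in a window of 250 bases before to 50 bases after each gene's start in RefSeq (build GRCm38.p6). CACGTG is the E-box bound by MYC with MAX and by several other helix-loop-helix factors. It occurred in at least one window of 83 of 416 genes that fell at least 2-fold (20%), of 27 of 282 that rose at least 2-fold (9.57%) and of 1186 of 10361 tested genes with a promoter in the table (11.4%). The tRNA modification genes held it in 11 of 59 (18.6%) and the mitochondrial import genes in 5 of 30 (16.7%). Other families searched that had more falls than rises held it less often, in 1 of 18 methionine and folate genes (5.56%) and 1 of 22 snoRNA host and long noncoding RNAs (4.55%). The cohesin family held it in 2 of 20, and 7.15% of all windows in the table held it. TGATGNAA, the ATF4-type composite motif, was found in 5.05% of the falls and 4.61% of the rises, against 2.71% of tested genes. TTCNNNGAA, the STAT-type palindrome, was found in 11.5% of the falls, 9.57% of the rises and 8.17% of tested genes. TGTTTAC, a forkhead motif, was found in 1.92%, 3.9% and 3.12%, and TTTCCCGC, an E2F-type motif, in 1.44%, 2.13% and 2.21%. CACGTG thus had the widest gap between falls and rises. Among the families searched, TTTCCCGC was found in 4 of 20 cohesin genes (20%) and in 0% to 4.55% of genes in each of the others. A match describes letters in a window and shows no binding. The next lines print the 250 bases before the start, 5′ to 3′ on the gene's strand, with CACGTG in capitals. They show 4 genes described here that fell, and Asb2, which rose, because the same letters stand at both.
Aldh18a1: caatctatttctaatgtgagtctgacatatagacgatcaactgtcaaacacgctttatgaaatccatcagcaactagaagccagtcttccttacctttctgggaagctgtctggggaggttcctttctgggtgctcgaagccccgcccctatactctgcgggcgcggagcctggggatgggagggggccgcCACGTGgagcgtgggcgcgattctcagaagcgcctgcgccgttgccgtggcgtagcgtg
Timm9: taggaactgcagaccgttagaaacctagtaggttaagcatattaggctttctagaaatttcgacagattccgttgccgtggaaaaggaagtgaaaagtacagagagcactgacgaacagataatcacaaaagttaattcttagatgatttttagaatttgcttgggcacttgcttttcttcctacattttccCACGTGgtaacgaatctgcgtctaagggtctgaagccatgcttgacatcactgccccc
Timm8a1: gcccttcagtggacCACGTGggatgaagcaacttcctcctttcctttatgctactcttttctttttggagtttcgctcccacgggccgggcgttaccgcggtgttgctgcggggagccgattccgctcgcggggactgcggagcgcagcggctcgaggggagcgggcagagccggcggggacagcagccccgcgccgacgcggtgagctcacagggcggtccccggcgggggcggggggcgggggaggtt
Qtrt1: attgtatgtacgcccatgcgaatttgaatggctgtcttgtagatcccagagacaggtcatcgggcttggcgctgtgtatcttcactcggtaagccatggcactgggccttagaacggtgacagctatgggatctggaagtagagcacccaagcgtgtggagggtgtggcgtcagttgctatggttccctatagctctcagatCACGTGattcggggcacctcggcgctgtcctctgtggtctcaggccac
Asb2: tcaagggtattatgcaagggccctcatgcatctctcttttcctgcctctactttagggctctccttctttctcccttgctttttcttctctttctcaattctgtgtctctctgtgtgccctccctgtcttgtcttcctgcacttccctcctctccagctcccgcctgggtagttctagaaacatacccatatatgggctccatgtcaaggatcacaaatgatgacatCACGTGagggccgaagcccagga

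Aldh18a1 (-2.23) lies at chr19:40588464-40588713 (minus strand), with the motif starting 59 bases before its start. Timm9 (-1.90) lies at chr12:71136676-71136925 (minus strand), with the motif 58 bases before the start. Timm8a1 (-1.76) lies at chrX:134541671-134541920 (minus strand), where the motif is 236 bases away. Qtrt1, a subunit of the enzyme that inserts queuine into tRNA, lies at chr9:21411587-21411836 (plus strand) with the motif 48 bases before its start. Qtrt1 read 945.4, 745.8 and 804.7 in high IL-7 and 314, 270.7 and 240.3 in low IL-7 (-1.54, SE 0.12). Asb2 lies at chr12:103356002-103356251 (minus strand) with the motif 23 bases before its start, and it read 189.6, 132.5 and 153.1 against 758, 1226 and 1042. The letters close to a start were therefore found at a gene that rose as well as at genes that fell.

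**Figure D3:**
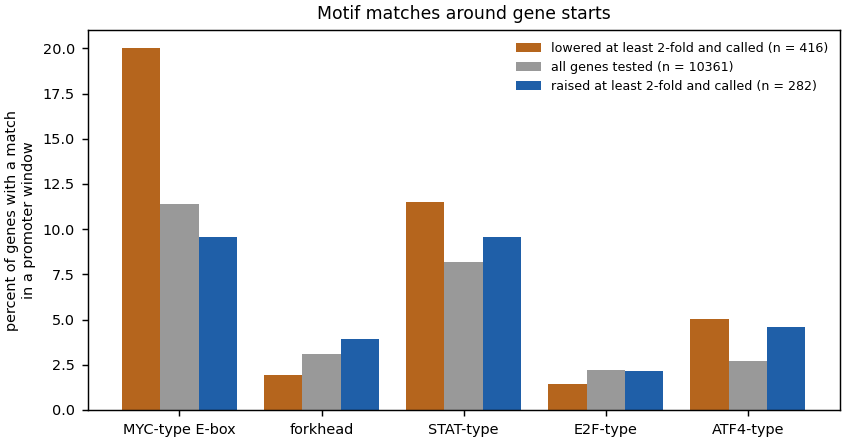
Percent of genes with a match to each of 5 motifs in a window around the gene start, for genes that fell at least 2-fold (n = 416), all genes tested (n = 10361) and genes that rose at least 2-fold (n = 282). The E-box CACGTG shows the widest gap, 20% of the falls against 9.57% of the rises.

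Families that leaned upward concerned chromosome structure and signalling at the membrane. Cohesin holds sister chromatids and loops together, and condensin compacts chromosomes. Of 26 cohesin, condensin and SMC genes tested, 16 rose (61.5%) and none fell in the limma fit. At an unadjusted p under 0.05 the counts were 18 and 0, where 5828 of all 12828 genes tested passed in either direction. The changes were small, with a median of 0.30 and a largest change of 0.89. Nipbl, which loads cohesin, read 2136, 2340 and 1928 in high IL-7 and 4241, 3742 and 3922 in low IL-7 (0.89, SE 0.12, limma adjusted p = 0.000224). The condensin subunits Ncaph (0.74) and Ncapd2 (0.58) came next. Rad21, the cohesin subunit that closes the ring, read 6130, 6166 and 6129 against 8162, 8030 and 8003 (0.39, SE 0.04), while Smc3 of the same ring stood at 0.05 with a 95% interval of -0.11 to 0.21. The groups did not overlap for Nipbl and Rad21. Between 14 and 17 rises were found with single arrays left out.

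Chromatin remodellers, which use ATP to slide or evict nucleosomes, had 21 rises (36.8%) and 6 falls (10.5%) among 57. Smarca4, the BRG1 motor of SWI/SNF complexes, read 5530, 4192 and 4260 in high IL-7 and 11000, 9607 and 10360 in low IL-7 (1.15, SE 0.10), and Arid1b of the same complexes rose by 1.07. Baz2b, a bromodomain partner of ISWI motors, rose by 1.19. The falls were led by Ruvbl2 (-1.23) and Ruvbl1 (-1.17), the paired ATPases that also serve in assembly of small nucleolar ribonucleoproteins. Ruvbl2 read 4860, 4030 and 4214 against 2091, 1747 and 1719, with no overlap. DNA methylation genes had 8 rises and 2 falls among 22. Mbd4, a glycosylase that binds methylated sites, rose by 1.57 (599, 645.3 and 556.4 against 2047, 1602 and 1813), and Dnmt3b, a methyltransferase that sets new marks, fell by 1.07. Histone acetylation genes had 14 rises led by Hdac5 (1.25) and 12 falls led by Kat2a (-1.13), and 7 falls without low IL-7 replicate 2. H3f3a, which encodes the replacement histone H3.3, rose by 1.62.

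Zinc finger genes of the Zfp and Zbtb series, mostly DNA-binding repressors, formed the largest family: 91 of 319 rose (28.5%) and 28 fell (8.78%), with a median of 0.15. Most changes were modest, and 4 rises and 3 falls reached 2-fold. Zfp52 read 886.6, 1098 and 918.2 in high IL-7 and 2547, 2908 and 2986 in low IL-7 (1.53, SE 0.18). Zfp593, which takes part in making ribosomes, read 1643, 1569 and 1697 against 571.6, 607.8 and 516.7 (-1.51, SE 0.10). The rises numbered between 66 and 103 and the falls between 17 and 31 with single arrays left out. The falls numbered 17 without high IL-7 replicate 3 and 18 without low IL-7 replicate 2. Other DNA-binding genes that rose included Zeb2 (1.51), Satb1 (1.18), Foxn3 (1.14), Foxp1 (0.94) and Esr1 (1.23). Atf4, the factor of the amino acid response, fell by 1.13 and Cebpb by 1.26.

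**Figure D4:**
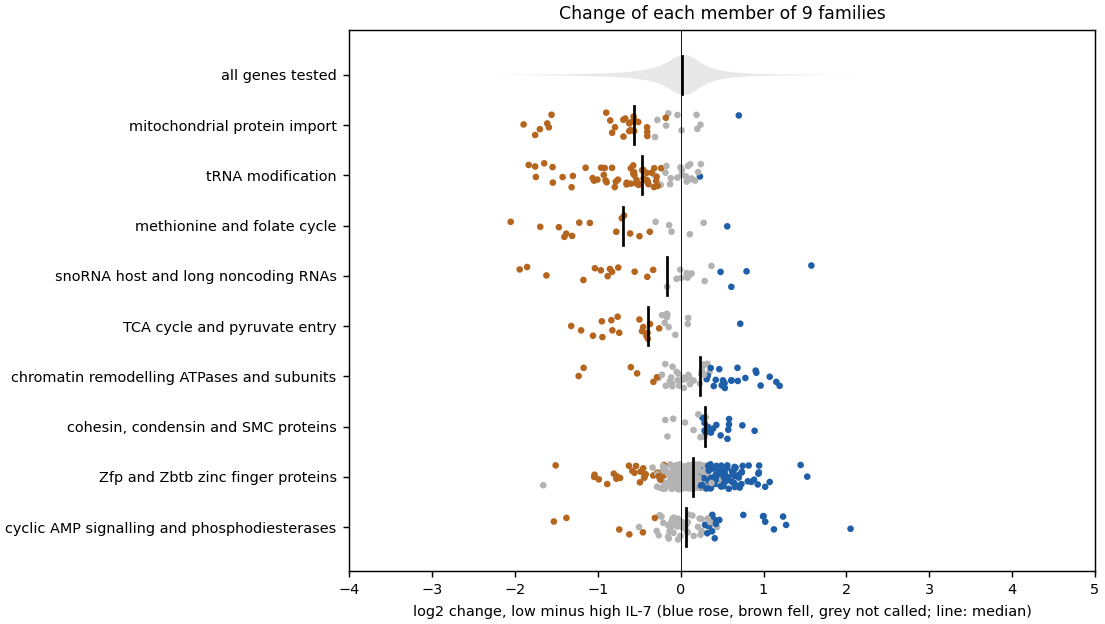
Log2 change (low minus high IL-7) of each tested member of 9 families, with one point per gene, blue where the gene rose, brown where it fell and grey where it was not called; black lines mark medians and the grey shape is the distribution over all genes tested. The import family centres at -0.57 and the cohesin family at 0.30, against 0.02 over all genes.

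Regulators of Ras, Rap and Rab proteins held fewer falls than the 19.5% over all genes. Ras and Rap regulators had 16 rises (31.4%) and 4 falls (7.84%) among 51. Rab and TBC domain genes, which steer vesicles, had 24 rises (23.1%) and 10 falls (9.62%) among 104, with the rises nearer the 17.8% over all genes. Without low IL-7 replicate 3 the falls in those families numbered 1 and 5, and without low IL-7 replicate 1 or 2 the Ras and Rap falls numbered 2. Rapgef3, the EPAC1 exchange factor that cyclic AMP opens, rose by 2.20 (286.8, 369.5 and 306.5 against 1242, 1612 and 1750), and its 3 other probe sets rose too (1.77, 2.14 and 1.51). Rab43 read 873.3, 1040 and 890.5 against 3883, 3345 and 3563 (1.93, SE 0.10), with 1 of its 2 other probe sets at 0.25 and not called.

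Cyclic AMP signalling genes had 19 rises (27.5%) and 6 falls (8.7%) among 69. Pde4b, a phosphodiesterase that breaks cyclic AMP down, read 494.8, 468.2 and 544.9 in high IL-7 and 2170, 2114 and 2100 in low IL-7 (2.05, SE 0.11, limma adjusted p = 6.11e-07). Akap12 (1.27), an anchor of protein kinase A at the membrane, rose, and Akap1 (-1.53), its anchor at the mitochondrial surface, fell. Phospholipase C, diacylglycerol kinase and related inositol lipid genes had 14 rises and 3 falls among 47, with Dgkd (1.24), Plcg1 (1.11) and Dgka (1.06) leading. Without high IL-7 replicate 1 or without low IL-7 replicate 3 that family had 9 rises and 1 fall. TGF-beta and BMP genes had 10 rises and 2 falls among 39 (1 fall without replicate 2 or 3 of high IL-7 and 0 without replicate 3 of low IL-7), and the receptor Tgfbr2 read 1348, 1436 and 1150 against 4636, 3562 and 3606 (1.57, SE 0.15). The groups did not overlap for Pde4b or Tgfbr2. Notch receptors went opposite ways, Notch1 by 1.11 and Notch2 by -0.86.

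Surface receptors included rises in Fc receptor genes. Among 47 SLAM, Fc receptor, lectin and Ly6 genes, 12 rose (25.5%) and 2 fell (4.26%). Fcgr2b, the inhibitory Fc receptor, read 682.8, 1006 and 713.7 in high IL-7 and 2023, 2549 and 2453 in low IL-7 (1.54, SE 0.22). Fcer1g, the signalling chain that Fc receptors share, rose by 1.49 and Fcrla by 1.47. Among 46 cytokine and cytokine receptor genes 12 rose, led by Il5ra (1.44) and Il12a (1.29), and 4 fell (2 without high IL-7 replicate 2 or low IL-7 replicate 3). Innate sensing genes had 9 rises, led by the inflammasome adaptor Pycard (1.52), and 3 falls among 37. Without low IL-7 replicate 3 the 9 rises became 5 and the 3 falls 1. Semaphorins, plexins and ephrins held few calls, with 1 rise and 5 falls among 46, of which Sema7a (-1.64) was the largest.

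Several families changed in both directions with clear single members. In the circadian clock 1 of 18 tested genes rose and 4 fell (2 without high IL-7 replicate 1 or any 1 of the low IL-7 arrays), and the rise was Arntl, which encodes the activator BMAL1. It read 1643, 1127 and 1697 in high IL-7 and 6819, 5664 and 6738 in low IL-7 (2.11, SE 0.19), and its other probe set stood at 2.92. Cry1, a repressor of the clock, fell by 0.57 and Ciart by 0.43. In base excision repair, where a glycosylase removes a damaged base and an endonuclease cuts the strand, Neil1 read 407, 348.1 and 429.9 against 1558, 1809 and 1960 (2.12, SE 0.13). Neil3, of the same glycosylase family, rose by 1.10 and the scaffold Xrcc1 by 0.68. Ung, the glycosylase for uracil, fell by 1.42 and the endonuclease Apex1 by 1.42 (4839, 4898 and 5647 against 2189, 1838 and 1724). That repair family had 6 rises and 7 falls among 35. In phospholipid and triglyceride synthesis the first acylation enzymes Gpam (1.85) and Gpat3 (1.60) rose, and Agpat5, of the next step, fell by 1.74, with 8 rises and 9 falls among 35. Gpam read 2130, 2012 and 2162 against 7930, 7471 and 7398.

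Membrane transport held few calls for its size, 16 rises and 22 falls among 162 plasma membrane carriers. Slc15a2, a peptide carrier, rose by 1.80. The zinc carriers Slc39a6 (-1.74) and Slc39a10 (-1.31) fell, the former from 2711, 2339 and 2443 to 833.2, 691.5 and 685.2. Among 37 mitochondrial carriers 10 fell and 8 rose (5 without high IL-7 replicate 1, and 4 without replicate 3 of either group), with Slc25a33, a pyrimidine nucleotide carrier, at -1.53. Heme, iron and iron-sulfur genes had 12 falls and 1 rise among 34 (0 rises without high IL-7 replicate 1 or low IL-7 replicate 2), among them Flvcr1 (-0.97), a heme exporter, and Glrx5 (-0.66), which serves iron-sulfur cluster assembly. Antioxidant genes had 14 falls and 8 rises among 47: Gsr (-1.40), which regenerates glutathione, and Sod2 (-1.24), the mitochondrial superoxide dismutase, fell, and Gstm1 (1.27) and Glrx (1.23) rose. Without low IL-7 replicate 3 those falls numbered 9.

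The genes with the largest differences in linear intensity were also described; this measure favours bright probe sets by its construction. H2az2, a histone H2A.Z gene, read 4481, 4488 and 4364 in high IL-7 and 10920, 10440 and 10260 in low IL-7 (1.24, SE 0.05). Tspan13, a tetraspanin, read 5091, 4508 and 4682 against 11080, 9924 and 10800 (1.15, SE 0.07). Laptm5, a lysosomal membrane protein that lowers surface antigen receptors, read 1615, 2313 and 1940 against 7565, 8635 and 8953 (2.10, SE 0.16). Cnp (1.83) and Sox4 (0.99) rose by similar amounts of intensity. Downward, the mitochondrial chaperonin Hspd1 read 11650, 11830 and 12030 against 5801, 5552 and 5385 (-1.08, SE 0.04). Scd2, a fatty acid desaturase, read 9851, 9660 and 9187 against 3133, 2984 and 2950 (-1.66, SE 0.13). Phgdh, which starts serine synthesis, read 8208, 5942 and 6199 against 2442, 1675 and 1657 (-1.82, SE 0.16). C1qbp, a mitochondrial matrix protein, fell by 0.99. Mif, a cytokine, fell by 1.20 on its brightest probe set, while its second probe set stood at 0.16 and was not called.

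A 95% interval within -0.25 to 0.25 held for 1393 genes, 15 of which were nevertheless called. The brightest of them were the translation genes Rps29, Tpt1, Eef1a1, Rpl37a, Rplp2 and Rps3a1. Eef1a1, the elongation factor that brings tRNA to the ribosome, read 21310, 22140 and 22190 in high IL-7 and 21490, 21820 and 22080 in low IL-7, with an interval of -0.07 to 0.06. Their readings lay near the top of the scale, where the highest value on these 6 arrays was between 23572 and 24762, and what that ceiling does to their differences was not tested. Tpt1 was called at 0.09 (limma adjusted p = 0.0291), a call lost in several alternatives. Rpl37a stood at 0.04, but another of its probe sets was called at -1.05.

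A small group of falls was uneven among the high IL-7 arrays. In 11 of the 513 falls of at least 2-fold, the high IL-7 arrays themselves differed at least 4-fold, and in all 11 high IL-7 replicate 2 was the highest. They were Col3a1, Pdgfra, Gas1, Ogn, Gas6, Snai2, Fos, Col6a1, Efemp1, Plod2 and Lifr, of which several encode matrix proteins or are known from connective tissue. Col3a1, a collagen, read 309.7, 1622 and 597.9 in high IL-7 and 61.55, 112.1 and 94.19 in low IL-7, where its mean lay below the filter level. The lowest high IL-7 array of Ogn (59.11) and Efemp1 (86.36) lay below the highest low IL-7 array (69.17 and 126.1), so these groups overlapped. Fos, an AP-1 subunit, read 233.5, 2838 and 550.8 against 172.5, 149.6 and 179.2. The sum of 15 stromal and fibroblast markers was likewise highest in high IL-7 replicate 2, at 8864, 36500 and 22280 in high IL-7 and 5149, 10920 and 8991 in low IL-7, so these groups overlapped too. Of those 15 markers 5 fell and none rose in limma. At an unadjusted p under 0.05 the counts were 8 and 0, where 5828 of all 12828 genes tested passed in either direction. The 5 falls became 1 without high IL-7 replicate 2 or low IL-7 replicate 3 and 9 without high IL-7 replicate 1. The part of such cells in the result was not tested. Fewer cells of a type and less RNA per cell cannot be told apart in bulk RNA. Under the fit blocked on replicate number, the limma adjusted p was 0.0522 for Col3a1, 0.0537 for Gas1 and 0.0716 for Col6a1. Over all alternatives, the largest adjusted p was 0.0906 for Fos, 0.0907 for Gas6, 0.0789 for Snai2 and 0.0987 for Lifr.

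**Figure D5:**
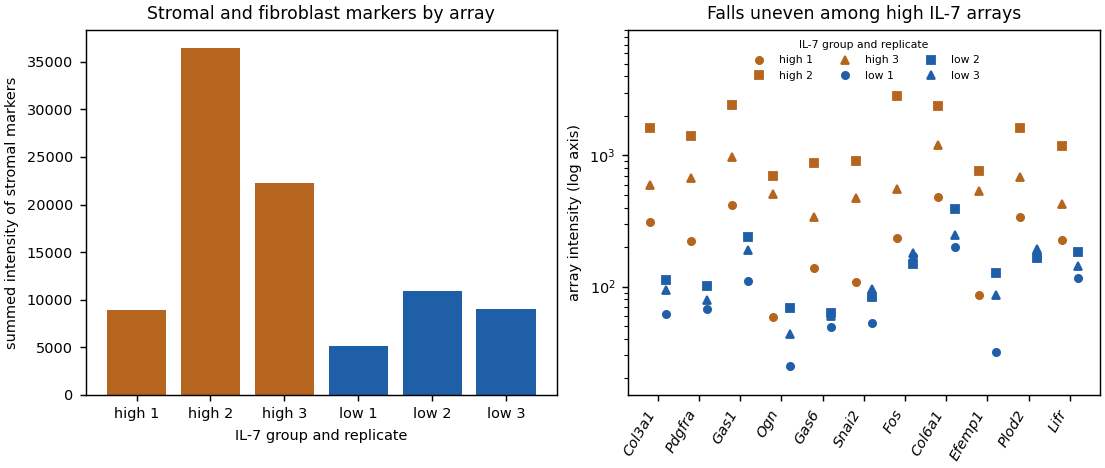
Left, summed intensity of 15 stromal and fibroblast markers on each array, from 5149 to 36500. Right, array intensity (log axis) of the 11 genes that fell at least 2-fold while the high IL-7 arrays differed at least 4-fold, with the replicate given by the point's shape; high IL-7 replicate 2 is the highest in each.

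Where a gene had several probe sets, they could be set against each other. Of 5758 genes with at least 2 probe sets above the filter, 72 had one probe set called up and another called down. In 43 of the 72 the brightest called probe set fell and in 29 it rose. Tma16, a gene of ribosome assembly, read 1177, 1070 and 1110 in high IL-7 and 307.7, 301.9 and 297.5 in low IL-7 on its bright probe set (-1.83), and 110.4, 133.6 and 111.5 against 185.4, 181.9 and 292.7 on a dim one (0.78). Bzw2, a regulator of translation start, fell by 1.06 on its bright probe set and rose by 1.62 on a dimmer one. Mtm1, a lipid phosphatase, fell by 1.61 and 1.58 on its bright probe sets and rose by 0.47 on a dim one. Mdn1 (-1.63), Adk (-1.27) and Bsn (-1.50) likewise fell on the brightest probe set while a dimmer one rose, and Cdk5r1 rose by 1.53 on the brighter and fell by 0.35 on the dimmer. Sec63, a partner of the protein channel of the endoplasmic reticulum, rose on 3 probe sets (1.17, 1.91 and 1.11) and fell on another (-0.37). Which transcript forms these probe sets read was not tested.

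Changed genes that neighbour each other were counted. Over all genes tested, 2.66% rose and 4% fell by at least 2-fold, and whether neighbours changed together more often than these shares give was not tested. Among 12779 pairs of tested genes adjacent in the RefSeq order, 20 pairs rose together by at least 2-fold, 24 fell together and 24 went opposite ways. Runs of 3 numbered 2, both of falls. On chromosome 11 they were Tada2a (-1.11), a subunit of histone acetylation complexes, Acaca (-1.34), the first enzyme of fatty acid synthesis, and Aatf (-1.37), a nucleolar protein. On chromosome 19 they were Rrp12 (-1.76), which takes part in ribosome assembly, Pgam1 (-1.02) of glycolysis and Exosc1 (-1.28) of the RNA exosome.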

How the data were processed

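RNA of the 9 samples was hybridised to Affymetrix arrays, per the labels. The deposited table holds linear intensity for 45101 probe sets; the sources used here do not say how the authors summarised and normalized these values. Gene symbols came from the platform annotation: 34945 probe sets had 1 symbol, 932 several and 9160 none (64 were controls). Of these, 34741 matched the GRCm38.p6 gene table by Entrez identifier, and no symbol changed.

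The 9 arrays were fitted on log2(intensity + 16) by limma 3.58.1 (R 4.3.3) with group means and a variance trend. Probe sets were kept at a mean log2 at or above the 40th percentile (an intensity of 106.5). Each gene was represented by its brightest probe set (highest mean), and p-values were Benjamini-Hochberg adjusted over 12828 genes. On simulated data for this comparison (12828 genes), 67, 67 and 66 genes were changed by 0.5, 1 and 2 log2. Of these, 64.2%, 100% and 98.5% were recovered, with 11 false among 186 calls. The simulated noise was independent between genes, and far fewer genes changed than the 37.3% called in the data. These shares therefore need not hold for the data.

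Named genes were the 30 largest rises and falls, the 10 largest in linear intensity each way, up to 3 each way per list, the 8 genes with the most discordant probe sets, the 6 brightest level genes and runs of adjacent genes. Not all are printed, and 1 family is not reported here. Rad21, Smc3, Qtrt1, Ogn, Efemp1, Plod2 and Irf4 were chosen after their values were seen. The members and lists were chosen with earlier results of these data known, and 2 list patterns were corrected after values were seen. Replicate numbers come from the titles. Low and high arrays of the same number deviated together (correlations 0.538, 0.377 and 0.281, each over 0.1), and the numbers were taken as pairs. That cut does not single out pairs. Low replicate 3 correlated more with high replicate 2 (0.341), and low replicate 2 with high replicate 3 also passed (0.109). Deviations from a mean of 3 arrays are not independent, so these values do not settle the pairing. The fit without the block is the one reported. The number of arrays limits the precision. Plots used Python 3.11.15 and matplotlib 3.10.9. Alternatives changed the pseudocount, filter, normalization, probe set rule, variance trend, arrays fitted, block, threshold and each array in turn.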

Additional observations from a re-analysis of the deposited data

How the results depend on the processing

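The count of called genes stayed within 1.5 times of 4783 under each of the 20 alternatives, from 3323 at an adjusted p under 0.01 to 5124 after quantile normalization; with 1 array left out it ran from 3789 to 5122. With the replicate block it was 4922, of which 4636 were shared. Median centring gave 41.9% rises among the calls, against 47.6%. Of 460 named genes that were called, 393 kept the call in every alternative, 66 lost it in 1 or more and 1 reversed. With the mean of a gene's probe sets Bzw2 stood at 0.044 and Rpl37a at -0.32. Some genes kept their call while the size of their change moved. At its smallest over the alternatives, the log2 change was -1.09 for Bcat1, -1.57 for Pfkl, -0.57 for Idh3a and -0.55 for Atf4. The block ended the calls of Col3a1, Gas1, Col6a1, Trmt12, Slc25a24 (adjusted p 0.0618) and Smad1 (0.0539), and changed no other call among the named genes except 2 that it added. Genes with an interval within -0.25 to 0.25 numbered 2562 with a pseudocount of 64, 2713 without a filter and 683 with the filter at the 60th percentile, against 1393, and 499 to 1749 with 1 array left out. Genes with opposite probe sets numbered 35 with the filter at the 60th percentile and 20 at an adjusted p under 0.01, against 72, and 31 to 90 with 1 array left out. Probe sets near the floor of the array limit the size of changes in dim genes.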

Other observations

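Protein turnover families were balanced or leaned slightly upward. Of 124 TRIM, RNF and MARCH ubiquitin ligases 31 rose (25%) and 16 fell (12.9%), led by Trim2, which read 210.9, 243.5 and 195.3 in high IL-7 and 1136, 873.9 and 907.1 in low IL-7 (log2 change 2.08, SE 0.19). The rises numbered 18 without high IL-7 replicate 3 and 20 without low IL-7 replicate 3. F-box and cullin proteins had 23 rises, led by Klhl24 (1.73), and 26 falls, led by Kctd14 (-1.45), among 135. Deubiquitinases and SUMO enzymes had 17 rises and 16 falls among 73. ESCRT, retromer and sorting nexin genes, which sort membrane proteins to lysosomes, had 28 rises (22.8%) and 8 falls (6.5%) among 123, with Snx30 at 1.06, and 5 falls without low IL-7 replicate 3. Among protease and protease inhibitor genes, Cst7, an inhibitor of lysosomal cysteine proteases, fell from 1059, 622.9 and 629.6 to 259.2, 127.2 and 145.7 (-2.04, SE 0.25).

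Cell death genes had 9 rises and 6 falls among 35. Casp6, an executioner caspase, rose by 1.14, while the mitochondrial proteins Endog (-1.12) and Htra2 (-1.08), which act once released from the organelle, fell. Small RNA pathway genes had 7 rises and 4 falls among 16, with the Argonaute gene Ago4 at 1.31 and the microRNA exporter Xpo5 at -0.86. The 7 rises became 4 after median centring, with the mean of probe sets, and without high IL-7 replicate 1 or 3. Bst2, an antiviral membrane protein counted among dendritic cell markers, read 816.1, 1257 and 603 against 249.5, 309.1 and 235.6 (-1.64). Car2, counted among erythroid markers, read 14900, 14380 and 14170 against 9524, 8274 and 8769 (-0.71).

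Probe sets without a gene symbol leaned upward. In one limma fit over all kinds of probe set, 798 of 3682 without a symbol were called up and 277 called down, so 74.2% of their calls were rises. The brightest probe sets of named genes had 2246 calls up and 2470 down (47.6% rises), and further probe sets of named genes had 46.4% rises. The median log2 change was 0.11 without a symbol and 0.02 for the brightest probe sets, and the median intensities were 190 and 466. What these probe sets read was not tested.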
